A study of Mus musculus with 190 samples.

Results

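The genes described here are the nuclear genes for subunits of the mitochondrial respiratory chain and of ATP synthase, measured as RNA in whole blood of male wild-type (WT) NC/Nga mice, inbred animals in which an eczema-like skin disease can arise once they leave pathogen-free rooms. Members were the protein-coding rows of the deposited count table whose symbols have a subunit stem: Nduf with a subunit letter and number (complex I), Sdha to Sdhd (complex II), Uqcr (complex III), Cox4 to Cox8 (complex IV) and Atp5 (complex V). The complex was set by stem too, so Ndufa4, a complex IV subunit, and its isoform Ndufa4l2 were counted under complex I. The rule used symbols and gene type alone, and 87 of 55414 rows met it. They were 39 of complex I, 4 of complex II, 8 of complex III, 18 of complex IV and 18 of complex V. Of these, 80 passed the filter on low counts and were tested: 38, 4, 8, 13 and 17 by complex. The 15 processed pseudogenes with such a symbol were left out, and 22 tested members overlap another tested gene, so their counts could hold reads of both where the counting ignored strand. The subunit genes that lack these stems, Cyc1 and Ndufab1, were counted apart.

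The series holds 190 libraries. Cohorts 1 to 9, of 10 mice each, were housed conventionally and first sampled on day 2, 5, 9, 12, 16, 19, 23, 26 and 30, in that order. A second sampling of each followed, for even-numbered cohorts on day 40 and for odd-numbered ones on day 44. The control cohort of 5 mice was kept specific-pathogen-free (SPF) and sampled on days 16 and 44, with a dermatitis score of 0 throughout. Scores of the conventional mice ran from 0 to 4. The labels used here give no ages and do not say whether a replicate number marks the same mouse at both samplings, so p-values measure the spread between these samples. In the first sampling, day and cohort are the same factor and cannot be told apart. The SPF mice form a single cohort, so SPF housing and cohort cannot be told apart either.

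Complex I (NADH dehydrogenase) and complex II (succinate dehydrogenase) pass electrons from NADH and succinate to ubiquinone. Complex III (cytochrome bc1) hands them to cytochrome c, and complex IV (cytochrome c oxidase) to oxygen. The proton gradient that complexes I, III and IV build drives complex V, ATP synthase, in which a rotating c ring turns the shaft inside a catalytic head. Most subunits are encoded in the nucleus, and a small core of complexes I, III, IV and V is encoded in mitochondrial DNA. Among blood cells, lymphocytes and platelets hold mitochondria, neutrophils live largely on glycolysis, and reticulocytes, the youngest circulating red cells, lose their mitochondria and RNA as they mature.

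Promoter sequences are shown because many members moved together while a few moved against them. RefSeq promoters (build GRCm38.p6, 250 bases before to 50 after the start of a gene) were matched by symbol for 69 of 86 member symbols. The motif of the transcription factor NRF1 stood in 17 of these 69 promoters (24.6%), against 5.19% of the 27025 genes in the table. The letters CCGGAAG, bound by GABP and other ETS factors, also stood in 17 of 69, against 9.93%. The YY1 motif AANATGGCG stood in 10 of 69, against 2.76%, and the GATA motif AGATAA in 6 of 69, against 12.7%. Both strands were searched over all 300 bases. The 150 bases before the start are given below for 4 genes that rose and 1 that fell between samplings, picked after their values were seen, 5′ to 3′ in the direction of the gene, with NRF1 and GABP matches in capitals. No matches overlapped in these windows, and the YY1 and GATA letters did not occur in them. The windows are chr5:115348959-115349108 on the minus strand for Cox6a1, chr17:56717612-56717761 on the plus strand for Ndufa11, chr9:50603850-50603999 on the minus strand for Sdhd, chr15:102671048-102671197 on the minus strand for Atp5g2 and chr7:4753095-4753244 on the minus strand for Cox6b2.
Cox6a1: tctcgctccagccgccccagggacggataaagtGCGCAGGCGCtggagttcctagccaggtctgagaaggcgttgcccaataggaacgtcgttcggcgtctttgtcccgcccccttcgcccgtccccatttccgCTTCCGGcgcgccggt
Ndufa11: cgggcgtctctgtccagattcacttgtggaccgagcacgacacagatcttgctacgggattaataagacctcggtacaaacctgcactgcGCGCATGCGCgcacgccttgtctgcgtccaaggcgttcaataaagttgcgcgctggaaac
Sdhd: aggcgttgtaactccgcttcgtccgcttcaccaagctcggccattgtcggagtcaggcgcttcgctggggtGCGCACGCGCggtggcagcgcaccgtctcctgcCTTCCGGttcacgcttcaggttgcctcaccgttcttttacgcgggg
Atp5g2: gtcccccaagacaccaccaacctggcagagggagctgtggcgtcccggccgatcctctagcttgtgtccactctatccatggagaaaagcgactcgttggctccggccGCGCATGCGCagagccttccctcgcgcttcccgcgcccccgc
Cox6b2: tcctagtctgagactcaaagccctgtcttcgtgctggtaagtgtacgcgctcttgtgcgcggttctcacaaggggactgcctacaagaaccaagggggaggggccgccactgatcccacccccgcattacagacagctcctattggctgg
An NRF1 match stood before the start in Cox6a1, Ndufa11 and Sdhd, whose RNA was higher at the second sampling, and also in Atp5g2, whose RNA was lower. Cox6b2, which also rose, held none of the searched letters in this window. Over members, 13 of 46 matched genes that rose and 2 of 7 that fell held the NRF1 motif. The GABP letters stood in 15 of 46 and 1 of 7, the YY1 motif in 6 of 46 and 1 of 7, and the GATA motif in 2 of 46 and 3 of 7. Differences between these shares were not tested. A match is a description of letters and not a binding site.

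Library totals lay between 21444129 and 71967299 counts (median 36448182), and the 87 members together took 0.148% to 0.870% of them. One SPF library, replicate 3 of day 16, held 45.3% globin counts, against a median of 4.98% over all 190 libraries. In the second sampling 9 libraries, all from conventional mice with a score of 2 or 3, had a TMM scaling factor under 0.5 (range over all libraries 0.276 to 1.85), which raises their scaled values (CPM, counts divided by the scaled library total) for most genes. They are replicates 3, 4 and 5 of cohort 1, replicate 7 of cohort 4, replicate 2 of cohort 5, replicates 4 and 6 of cohort 7 and replicates 7 and 10 of cohort 9. The 12 erythroid markers (Alas2, Slc4a1 and others) summed to a median of 44152 CPM at the first and 68655 CPM at the second sampling of conventional mice, with a highest value of 239252 CPM in one of these 9 libraries. All 12 neutrophil markers were also detected, at median sums of 1481 and 4697 CPM. B cell markers summed to medians of 679 and 410 CPM, and T cell markers to 162.9 and 140.2 CPM.

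Levels between genes are compared as the deposited TPM, which divide by gene length. The highest median TPM over the 190 libraries were those of the ATP synthase genes Atp5b (155.5), Atp5mpl (137.8) and Atp5l (114.4) and of Cox6c (134.6), a small complex IV subunit. Uqcrh, the hinge protein of complex III, had the highest median TPM of that complex at 90.4, Ndufa1 that of complex I at 60.9 and Sdhd, a membrane anchor, that of complex II at 13.4. The TPM ranges of single genes over libraries were wide, from 81.8 to 605 for Atp5b and from 40.2 to 219 for Ndufa1, so neighbours in this order overlapped. Of 80 tested members, 34 had a median TPM of at least 10 and 38 one under 5. The 3 c ring genes Atp5g3, Atp5g2 and Atp5g1 stood at 4.30, 3.66 and 2.11 TPM.

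Some subunits have a tissue-restricted isoform beside a ubiquitous one, and in these libraries nearly all counts came from the ubiquitous one, with 1 exception. Cox6b2, known as the testis isoform, had a median TPM of 11.1 (range 4.25 to 42.5), against 16.1 (8.66 to 52.4) for its ubiquitous partner Cox6b1. The muscle and heart isoforms Cox6a2, Cox7a1 and Cox8b and the isoforms Cox7b2 and Cox8c were too low to be tested, as was Ndufb11b. Cox7b2 had 0 counts in all libraries together, which allows up to 0.000427 CPM (3 counts over all libraries, counting error only). Cox7a1 had counts in 65 of 190 libraries. Their partners were plain: Cox6a1 had a median TPM of 22.2, Cox7a2 of 33.2, Cox7b of 35.7 and Cox8a of 44.4. The hypoxia-linked isoforms Cox4i2 and Ndufa4l2 had a median TPM of 0, against 19.99 for Cox4i1 and 41.2 for Ndufa4. The remaining untested row is a second Atp5o entry with 0 counts.

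At the second sampling 56 of 80 tested members were called higher than at the first, and complexes III and IV had the highest median changes. With cohort as a covariate over 180 conventional libraries, edgeR called 67 of 80 tested members, 56 higher and 11 lower, at an adjusted p under 0.05. Over all 18192 genes, 62.1% were called, 31.4% higher and 30.6% lower. The members' median log2 fold change was 0.49, against -0.02 for all genes. By complex, 23 members rose and 6 fell of 38 in complex I (median 0.27), 2 rose and 1 fell of 4 in complex II (0.18), 8 rose and 0 fell of 8 in complex III (0.81), 11 rose and 1 fell of 13 in complex IV (0.77), and 12 rose and 3 fell of 17 in complex V (0.50). The erythroid markers moved in the same comparison (12 of 12 rose, median 1.09), as did neutrophil markers (12 of 12 rose, median 1.68), B cell markers (10 of 10 fell, median -0.56) and T cell markers (8 of 10 fell, median -0.14). Platelet markers rose as well (8 of 8, median 0.38). In bulk blood, fewer cells of a type and less RNA per cell cannot be told apart. With the means of the neutrophil, B cell, T cell and erythroid lists as covariates, 1 of 80 members was called, against 9.08% of all genes, and the members' median was -0.03.

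**Figure D1:**
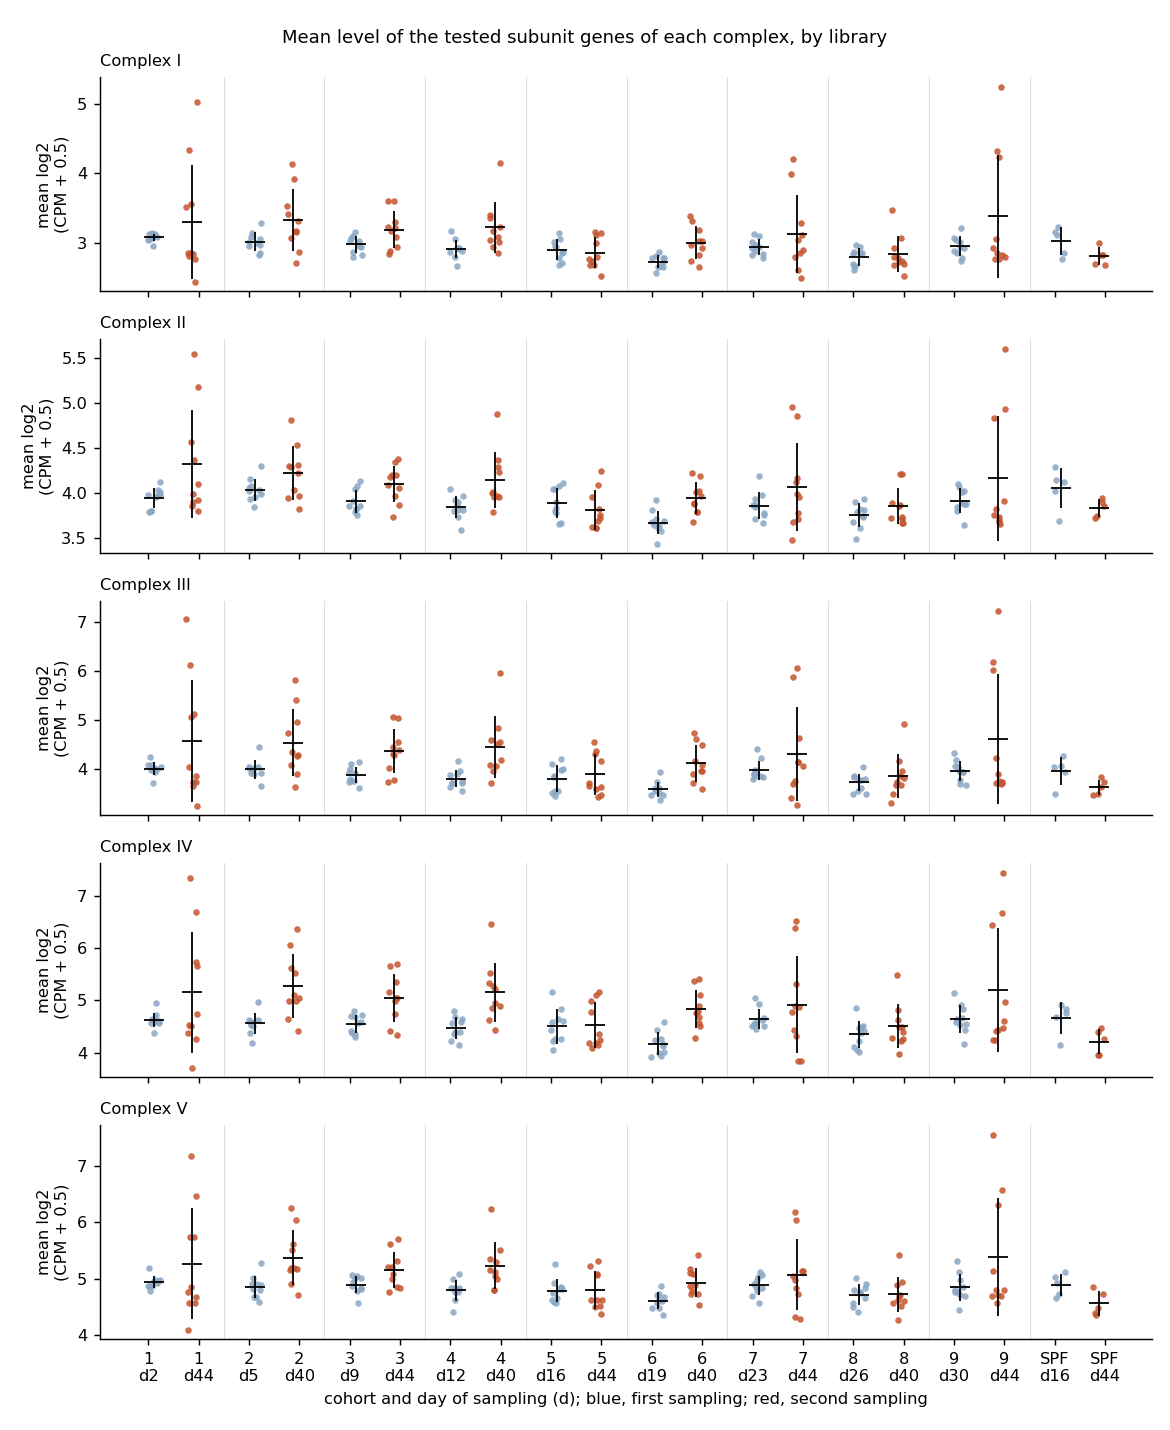
Mean log2(CPM + 0.5) over the tested members of each complex (y axis) in each library, by cohort and day (x axis). Points are libraries, blue for the first and red for the second sampling, and bars are the group mean ± SD. Second-sampling groups spread upward through a few libraries, up to 7.24 in complex III, while first-sampling libraries stayed between 3.37 and 4.46 there.

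The size of these rises rested in part on a few libraries, and the groups overlapped for the members shown. Without the 9 libraries of TMM factor under 0.5, 59 of 80 members were called, 45 higher and 14 lower, against 57.9% of all genes, and the median fell to 0.21 (all genes -0.02). By complex that median was 0.07, 0.05, 0.44, 0.41 and 0.23 for I to V. Scaling by total counts alone moved the median of all genes to -0.38 and that of members to -0.07. In that fit 30 members were called higher and 36 lower, and the share of all genes called is not given here. The direction of a member is therefore given relative to the scaling: under that scaling the medians of complexes III and IV stayed above 0 (0.19 and 0.15) and those of I, II and V did not (-0.24, -0.29 and -0.05).

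Complex V. Atp5b, the catalytic beta subunit of the head (chr10:127919142-127926260, GRCm39), ranged from 304 to 1148 CPM with a median of 573 at the first sampling and from 308 to 7478 CPM with a median of 881 at the second. The lowest libraries of both samplings were alike, and the second sampling reached far higher. Its log2 fold change was 1.11 ± 0.13 (SE, edgeR adjusted p = 1.7e-14, n = 180), and 0.71 without the 9 libraries. Atp5j2, a small membrane subunit, rose by 0.92 ± 0.14. The other genes of the head and its shaft were Atp5a1 (0.48 ± 0.07) and Atp5e (0.53 ± 0.11), which rose, and Atp5c1 (0.05 ± 0.04) and Atp5d (0.08 ± 0.08), which were not called.
All 3 c ring genes went the other way. Atp5g2 ranged from 3.62 to 10.7 CPM with a median of 6.44 at the first sampling and from 1.37 to 10.3 CPM with a median of 5.37 at the second. The groups overlapped almost fully. It fell by 0.27 ± 0.06 on the log2 scale, Atp5g3 fell by 0.19 ± 0.04 and Atp5g1 fell by 0.16 ± 0.06 (edgeR adjusted p = 2.6e-05, 2.4e-06 and 0.013), and these 3 were lower under each scaling tried. With the 4 marker list means as covariates 0 of 3 were called.

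Complex IV. Cox6a1 (chr5:115483701-115487040, GRCm39), the ubiquitous subunit 6A, ranged from 11.05 to 55.3 CPM with a median of 23.2 at the first sampling and from 10.3 to 557 CPM with a median of 34.6 at the second. It rose by 1.32 ± 0.16 on the log2 scale (edgeR adjusted p = 2.4e-13). Cox6b2 ranged from 4.18 to 20.8 CPM with a median of 8.60 and then from 5.61 to 157.1 CPM with a median of 16.3. Its rise of 1.34 ± 0.13 was the largest estimate among members, and its partner Cox6b1 rose by 0.60 ± 0.10. Cox6b2 was also the 1 member called with the marker list covariates, at 0.29 (edgeR adjusted p = 0.0016). Cox7a2 rose by 1.16 ± 0.15, and all 7 ubiquitous partners of the restricted isoforms were called higher. Cox4i1, the largest nuclear subunit, rose by 0.88 ± 0.11. Cox5a, which binds Cox4i1, rose by only 0.18 ± 0.06 and fell by 0.22 when scaled by total counts. Cox7a2l, which helps to join complexes III and IV, was not called (0.06 ± 0.04). Cox4i2 and Ndufa4l2 were called lower (-1.98 ± 0.44 and -1.85 ± 0.47) at a median of 0 CPM in both samplings and at most 1.19 and 1.15 CPM in a library. In cohorts 6 to 9 alone their estimates were 0.37 and 1.44, and neither was called.

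Complex III. All 8 tested members were called higher. Uqcr11 ranged from 3.07 to 16.2 CPM with a median of 8.43 at the first sampling and from 3.38 to 117.9 CPM with a median of 9.94 at the second, so most of both groups overlapped. It rose by 0.94 ± 0.14 (edgeR adjusted p = 6.4e-10), and by 0.47 without the 9 libraries. Uqcrq, a small subunit, rose by 0.92 ± 0.13. The core proteins differed: Uqcrc2 rose by 0.82 ± 0.10, while Uqcrc1 rose by 0.23 ± 0.07 and the Rieske iron-sulfur protein gene Uqcrfs1 by 0.24 ± 0.06. Uqcrc1 had a median of 12.4 CPM at the first and 12.2 CPM at the second sampling, and without the 9 libraries its estimate was 0.02, not called. Uqcrc1 and Uqcrfs1 fell by 0.30 and by 0.27 when scaled by total counts.

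Complex II. Sdhd (chr9:50507657-50515112, GRCm39), a membrane anchor, ranged from 22.5 to 93.6 CPM with a median of 48.3 at the first sampling and from 25.8 to 545 CPM with a median of 69.95 at the second. It rose by 0.95 ± 0.12 (edgeR adjusted p = 4.9e-12). Sdha, the flavoprotein, rose by 0.34 ± 0.05, and fell by 0.15 when scaled by total counts. The iron-sulfur subunit gene Sdhb was not called (0.03 ± 0.05), with medians of 11.1 and 10.6 CPM. Sdhc, the partner anchor of Sdhd, fell by 0.12 ± 0.06 at an edgeR adjusted p of 0.041. Of the 4 genes, 2 rose, 1 fell and 1 was not called.

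Complex I. The accessory subunit genes Ndufa11 and Ndufb11 both rose by 1.13 ± 0.14. Ndufs1 (chr1:63182755-63215992, GRCm39), the largest core subunit of the NADH-oxidising arm, ranged from 19.3 to 54.1 CPM with a median of 27.8 at the first sampling and from 21.8 to 405 CPM with a median of 37.04 at the second. It rose by 0.97 ± 0.11 (edgeR adjusted p = 3.2e-14). Other core genes did not follow it closely: Ndufv2 (0.26 ± 0.06) and Ndufs3 (0.19 ± 0.07) rose, Ndufs8 (-0.14 ± 0.06) fell, and Ndufv1 (-0.08 ± 0.06) and Ndufs7 (0.07 ± 0.09) were not called. The largest falls in complex I above 1 CPM were those of Ndufb5 (-0.27 ± 0.04) and Ndufc2 (-0.23 ± 0.05), both accessory subunits of the membrane arm. Ndufs1 overlaps Eef1b2 and Ino80dos, Ndufb5 overlaps Mrpl47, Ndufa11 overlaps Vmac and Ndufb11 overlaps Rbm10, so their values are uncertain in this respect, as are those of Cox4i1 (Emc8) and Cox5a (Gm26631).

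**Figure D2:**
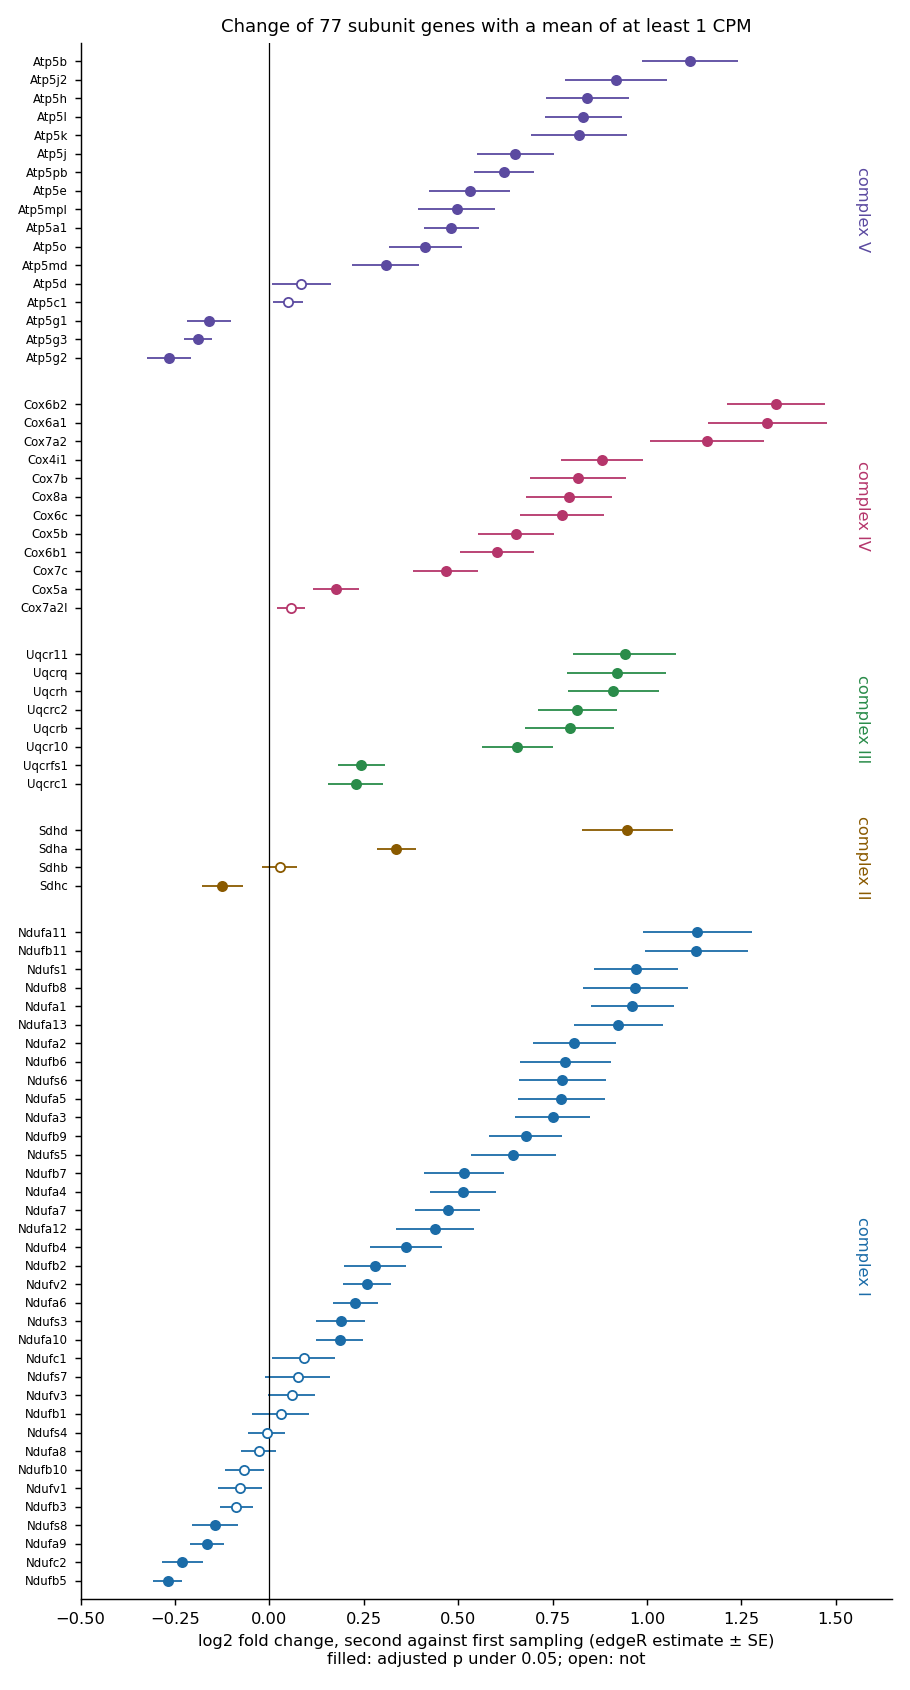
Log2 fold change of the second against the first sampling (x axis, edgeR estimate ± SE) for 77 of the 78 members with a mean of at least 1 CPM (1 is not reported here), by complex (y axis). Filled points were called at an adjusted p under 0.05. All 8 complex III genes lie right of 0, from 0.23 to 0.94, and the 3 c ring genes lie left of it.

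**Figure D3:**
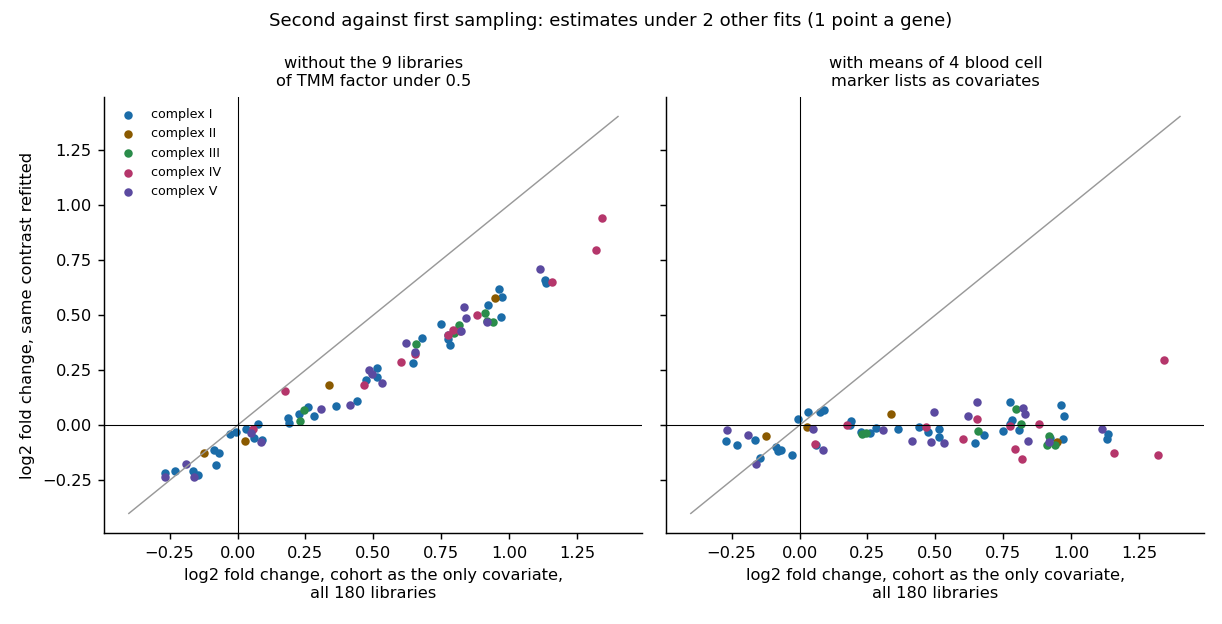
Each point is 1 of the same 77 members; the x axis is the log2 fold change over all 180 libraries with cohort as covariate, and the y axis the same contrast refitted without 9 libraries (left) or with 4 marker list means as covariates (right). The grey line marks equal values. Over the 80 tested members the median fell from 0.49 to 0.21 in the left fit and lay at -0.03 in the right one.

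The rise was not seen in each cohort. By group medians, 57 to 65 of the 80 members were higher at the second sampling in cohorts 1, 2, 3, 4, 6 and 7, 52 in cohort 8 and 73 in cohort 9. Cohort 5 had 35 of 80 higher and a median change of -0.02. Its libraries also changed in make-up: median globin counts were 3.72% and then 7.03%, and mitochondrial rRNA 10.1% and then 15.9%. The SPF mice, sampled on the same days as cohort 5, had 7 of 80 higher and a median change of -0.27. Atp5b shows the pattern: its group median went from 543 to 1154 CPM in cohort 4 and from 368 to 886 CPM in cohort 6, but from 591 to 457 CPM in cohort 5 and from 677 to 389 CPM in SPF mice.

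Within the 30 libraries of cohort 5 and SPF mice, few members were called. On day 16, conventional against SPF mice, edgeR called 0 of 80 members (3 at an unadjusted p under 0.05), against 0.473% of all genes, and DESeq2 called 0 members, against 2.55% of all genes. From day 16 to day 44 in cohort 5, 1 member was called, against 12.4% of all genes: Ndufs1 rose by 0.50 ± 0.17 (edgeR adjusted p = 0.047). Mitochondrial rRNA took a median of 10.1% of counts on day 16 and 15.9% on day 44 in cohort 5, against 7.30% and 7.47% in SPF mice, and with it and the globin share as covariates 3 members were called higher. Ndufs1 was not called without cohort 5 replicate 2, one of the 9 libraries, where Ndufa10 was called lower instead. In SPF mice edgeR called 0 of 80 members and 0.0% of all genes. At an unadjusted p under 0.05 there were 8 members and 1031 of 18192 genes. DESeq2 also called 0 members in SPF mice, with a members' median of -0.29. Atp5b there stood at 405, 638, 677, 732 and 778 CPM on day 16 and at 389, 297, 522, 459 and 307 CPM on day 44, and 4 of 5 values of day 16 lay above all values of day 44. The difference between both changes was called for 0 of 80 members and 0.0% of all genes by edgeR. At an unadjusted p under 0.05 there were 13 members and 1881 of 18192 genes. DESeq2 also called 0 members, against 0.275% of all genes.

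On day 44, the 50 conventional mice were set against the 5 SPF mice, and 6 of 80 members were called, 3 higher and 3 lower, against 19.7% of all genes (10.7% higher, 9.04% lower). Members nevertheless lay high on balance, with a median log2 fold change of 0.92 with all genes centred near 0. Of the 80, 36 had an unadjusted p under 0.05, and the share of all genes at that unadjusted threshold is not given here. Cox6b2 stood at 4.799, 4.777, 9.29, 5.79 and 4.46 CPM in the SPF mice and from 5.61 to 157.1 CPM with a median of 16.3 in the conventional mice. Most conventional values lay above all SPF values, and the groups overlapped below 9.29 CPM. Its log2 fold change was 2.23 ± 0.73 (edgeR adjusted p = 0.025). Atp5b was higher by 1.90 ± 0.71 and Atp5l, a membrane subunit, by 1.53 ± 0.52. Ndufa4l2 and Cox4i2 were called lower (-4.12 ± 0.67 and -3.37 ± 0.77), but SPF replicate 3 alone held 0.665 and 0.693 CPM, the other 4 SPF libraries at most 0.0157 CPM, and without it the estimates turned to 1.10 and 0.79.
The count on this day was unstable. DESeq2 called 26 members higher and 1 lower, against 23.5% of all genes, and each SPF library mattered. Of the 6 calls, 3 were left without replicate 1 or 5, 2 without replicate 2 or 4 and 1 without replicate 3. Erythroid markers were higher as well (11 of 12 called, median 2.02), as were neutrophil markers (11 of 12, median 2.80), and B cell markers were lower (10 of 10, median -0.95). The conventional cohorts also differed in library make-up on this day, and the main fit had no covariate for it. Median mitochondrial rRNA was 7.47% of counts in SPF mice, 6.35% in cohort 1 and 7.06% in cohort 3. In cohorts 5, 7 and 9 it was 15.9%, 14.96% and 16.1%. Median globin shares were likewise higher there than in SPF mice and cohorts 1 and 3. With globin and mitochondrial rRNA shares as covariates 25 members were called higher and 2 lower, against 24.4% of all genes. Cohorts 1 and 3 were also fitted alone, with the count given below. With the marker list means as covariates 0 members were called higher and 7 lower, and scaling by total counts alone gave 1 higher and 30 lower with all genes at a median of -0.72. The shares of all genes called in these fits are not given here, so these counts do not set members apart from other genes.

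Over the 9 first-sampling days, 63 of 80 members differed among days by edgeR's F test at an adjusted p under 0.05, against 57% of all genes. A linear trend per 10 days was called for 40 members, 8 higher and 32 lower, against 52.3% of all genes (26.5% higher, 25.8% lower), with a members' median of -0.06 per 10 days. Core complex I genes went down with day, 6 of 7 called lower: Ndufs8 changed by -0.26 ± 0.04, Ndufs7 by -0.24 ± 0.05, and Ndufv1 by -0.22 ± 0.03. Ndufa12, an accessory subunit, had the largest fall in that complex above 1 CPM (-0.30 ± 0.04). Uqcrc1 fell by 0.20 ± 0.03, Uqcrfs1 fell by 0.08 ± 0.02, Sdhb fell by 0.08 ± 0.02, Cox7a2l fell by 0.13 ± 0.02 and Atp5g1 fell by 0.26 ± 0.04. Atp5b (0.05 ± 0.05) and Cox4i1 (-0.04 ± 0.03) were not called. The members that rose included Atp5l (0.23 ± 0.04), Cox6b2 (0.21 ± 0.05), Atp5j (0.15 ± 0.04), Ndufb6 (0.12 ± 0.04), Cox5a (0.11 ± 0.05) and Ndufs1 (0.10 ± 0.03), and of these Atp5j, Ndufb6, Cox5a and Ndufs1 turned negative when scaled by total counts (-0.044, -0.070, -0.075 and -0.086).
Neutrophil markers rose over these days (10 of 12 called, median 1.15 per 10 days) and B cell markers fell (9 of 10, median -0.25), and 7 of 12 erythroid markers rose (median 0.15).
The libraries of early and late cohorts also differed in make-up. Median globin counts in the first sampling were 2.94% to 4.49% in cohorts 1 to 4 and 7.10% to 8.61% in cohorts 6 to 9, and mitochondrial rRNA took 5.28% to 8.17% and 14.04% to 17.03%. With both shares as covariates 9 members rose and 13 fell, against 31.4% of all genes called, and within cohorts 6 to 9 alone 2 rose and 1 fell, against 2.53%. Within cohorts 1 to 4, days 2 to 12, 1 rose and 23 fell, against 23.3%, and over the 58 libraries at score 0, 1 rose and 39 fell, against 34.7%. Scaling by total counts alone gave 0 higher and 75 lower, with all genes at a median of -0.17 and their share called not given.

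Severity at the second sampling was tested as a slope on the dermatitis score over 90 libraries, with cohort as a covariate. Of the members, 54 of 80 were called higher and 2 lower, against 18.9% and 17.7% of all genes (36.6% in all). The members' median slope was 0.28 per score point, against -0.02 for all genes, with medians of 0.19, 0.10, 0.41, 0.38 and 0.30 for complexes I to V. At scores 0, 0.5, 1, 2 and 3 (n = 7, 5, 11, 27 and 39), Atp5b had medians of 460, 548, 560, 837 and 1179 CPM, and the 1 mouse with score 4 had 2300 CPM. At score 0 it ranged from 317 to 583 CPM and at score 3 from 309 to 7478 CPM, so low values occurred at both. Its slope was 0.59 ± 0.12 (edgeR adjusted p = 6.9e-05). Cox6a1 had medians of 17.1, 20.6, 19.95, 29.5 and 47.2 CPM over the same scores and a slope of 0.75 ± 0.16, the steepest estimate among members.
Other members by complex followed. Ndufb11 and Ndufa11 had slopes of 0.61 ± 0.13 and 0.61 ± 0.14, Sdhd of 0.53 ± 0.12, Uqcrq of 0.56 ± 0.13, Uqcr11 of 0.54 ± 0.14, Cox7a2 of 0.67 ± 0.15 and Ndufs1 of 0.50 ± 0.11. Cox4i1 rose by 0.51 ± 0.10, and the smaller slopes of Uqcrc1 (0.20 ± 0.07), Uqcrfs1 (0.17 ± 0.06), Sdha (0.15 ± 0.05) and Cox7a2l (0.09 ± 0.03) were called higher but turned negative when scaled by total counts. Sdhb (0.04 ± 0.04), Cox5a (0.08 ± 0.04) and Ndufv1 (0.07 ± 0.05) were not called. The members called lower were Atp5g2 (-0.15 ± 0.04) and Ndufb5 (-0.11 ± 0.03). Atp5g2 medians were 7.41 CPM at score 0 and 5.15 CPM at score 3.
Blood cell markers followed the score too: 12 of 12 erythroid markers (median slope 0.58) and 12 of 12 neutrophil markers (0.47) rose, and 10 of 10 B cell markers (-0.27) and 9 of 10 T cell markers (-0.12) fell. With their list means as covariates 0 of 80 members were called (13 at an unadjusted p under 0.05), 5 genes were called in all, and the members' median was -0.05. Within cohorts 1 to 4, 64 members rose with score and 1 fell, against 29.7% of all genes called. Within cohorts 6 to 9, edgeR called 0 members and 0 genes (4 members and 2582 genes at an unadjusted p under 0.05), and the members' median slope there was 0.12. With globin and mitochondrial rRNA shares as covariates 18 rose and 2 fell, against 22% of all genes called, and without the 9 libraries 46 rose and 2 fell, against 32.5%, at a median of 0.16. Scaling by total counts alone gave 30 higher and 19 lower, with all genes at a median of -0.21 and their share called not given.

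**Figure D4:**
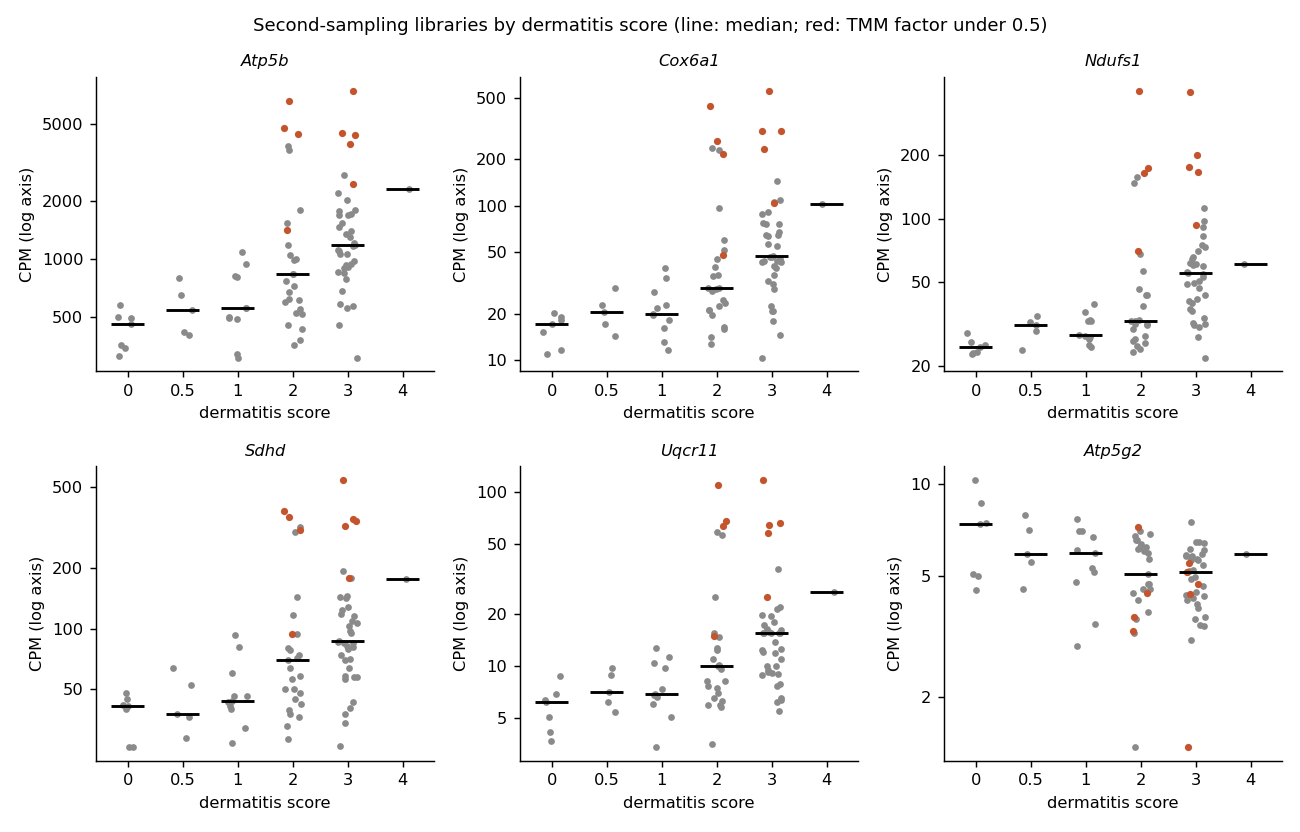
CPM on a log axis (y) by dermatitis score (x) in the 90 second-sampling libraries for 6 members. Each point is a library, red where its TMM factor is under 0.5, and lines are medians. The Atp5b median goes from 460 CPM at score 0 to 1179 CPM at score 3, and Atp5g2 runs the other way, from 7.41 to 5.15 CPM.

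At the first sampling, over the 60 libraries of days 12 to 30, 3 of 80 members rose with score and 0 fell, against 10.0% of all genes called (6.19% higher, 3.86% lower). They were Ndufs1 (0.19 ± 0.05), Uqcrc2 (0.15 ± 0.05) and Atp5pb, a stalk subunit of ATP synthase (0.19 ± 0.05), with edgeR adjusted p of 0.016, 0.036 and 0.0068. With the replicate number as a block, with the marker list means as covariates and with scaling by total counts alone, edgeR called 0 members, and 7, 3 and 14 had an unadjusted p under 0.05. Ndufs1 medians were 25.6, 30.5, 28.1 and 34.7 CPM at scores 0, 0.5, 1 and 2 (n = 28, 9, 12 and 10), with overlapping ranges. Atp5b had a slope of 0.21 ± 0.09, not called. The slopes of both samplings differed for 0 of 80 members and 0.0% of all genes by edgeR. At an unadjusted p under 0.05 there were 19 members and 2345 of 18192 genes. DESeq2 also called 0 members, against 1.42% of all genes.

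Erythroid markers rose along with most members between samplings and with the score at the second sampling, as neutrophil markers did. In the first-sampling trend most called members fell, while most erythroid markers rose. Members differed there, and some with steep slopes on the erythroid list, such as Atp5b, were not called in that trend. The slope of each gene on the erythroid list mean was fitted within each sampling, with cohort as a covariate. No such fit was made for the other marker lists. The list holds no member, but both come from the same libraries and share their scaling. At the second sampling 71 of 80 members rose with it and 4 fell, against 23.2% and 32.7% of all genes (55.9% in all). The members' median slope was 0.70 per doubling of the list mean, against -0.08 for all genes, and 0.54, 0.33, 0.89, 0.89 and 0.70 by complex from I to V. Cox6a1 (1.31 ± 0.03), Cox7a2 (1.24 ± 0.04), Ndufa11 (1.16 ± 0.04), Ndufb11 (1.15 ± 0.03), Atp5b (1.08 ± 0.02), Uqcr11 (1.08 ± 0.04) and Sdhd (1.01 ± 0.03) rose about as steeply as the list itself. Cox5a (0.16 ± 0.04), Sdhb (0.25 ± 0.03) and Cox7a2l (0.25 ± 0.02) had shallow slopes, which turned negative when scaled by total counts, and Ndufb5 (-0.24 ± 0.03) and Atp5g2 (-0.17 ± 0.05) fell. Scaling by total counts alone gave 47 higher and 20 lower, with all genes at a median of -0.85 and their share called not given.
At the first sampling, where the list mean varied less, 44 members rose with it and 4 fell, against 13.4% and 13.6% of all genes (27.1% in all), with a members' median of 0.30. Atp5b (0.89 ± 0.04), Cox7a2 (0.92 ± 0.07), Cox6a1 (0.89 ± 0.07) and Sdhd (0.76 ± 0.06) again had the steep slopes. The members that fell were Atp5g2 (-0.35 ± 0.09), Ndufa9 (-0.25 ± 0.06), Atp5g3 (-0.18 ± 0.06) and Ndufb5 (-0.18 ± 0.05). What part red cell precursors have in the members' changes was not tested beyond these fits.

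**Figure D5:**
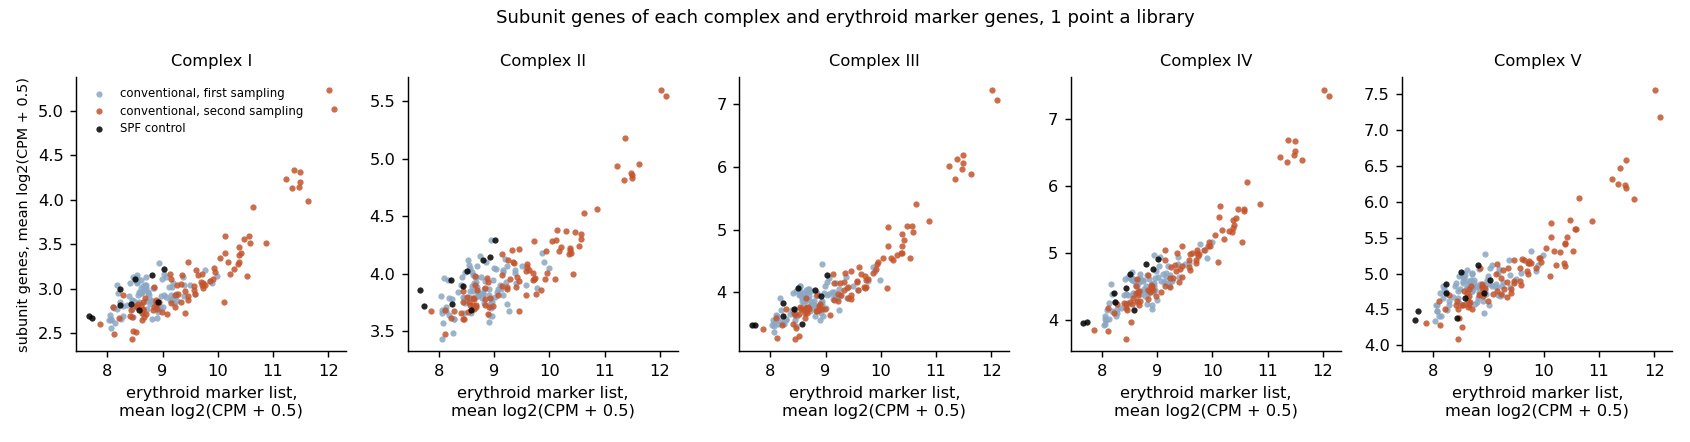
Mean log2(CPM + 0.5) of the tested members of each complex (y axis) against that of the 12 erythroid markers (x axis), 1 point a library. First-sampling libraries (blue) reach an erythroid mean of 9.99 and second-sampling libraries (red) 12.1. The median slopes of complexes III and IV, both 0.89, were above those of the other complexes.

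The change between samplings was compared between the early cohorts 1 to 4 and the late cohorts 6 to 9. It differed for 8 of 80 members, 7 with a higher and 1 with a lower change in the late set, against 25.1% of all genes (11.2% higher, 13.9% lower). Among them were Ndufs7, Ndufs8, Ndufa9, Ndufb5 and Ndufa4l2, placed in complex I by symbol stem alone, and Cox4i2, placed in complex IV. Cox5a went in the other direction (-0.40 ± 0.13, and 0.0096 when scaled by total counts). Without the 9 libraries 8 differed in each direction, and scaling by total counts alone gave 35 higher and 0 lower. All genes had a median of 0.36 under that scaling, and the shares of all genes called in both fits are not given.

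Other genes of mitochondrial energy metabolism were counted in the same fit, second against first sampling. Of the 13 subunits encoded in mitochondrial DNA, 8 rose and 1 fell, with a median of 0.19. The gene mt-Co1, for the catalytic subunit of complex IV, rose by 0.77 ± 0.09. Of 45 assembly factors 6 rose and 23 fell (median -0.16), led by Pet100, a complex IV factor (1.16 ± 0.14), and Sdhaf1, a complex II factor (-0.32 ± 0.09). Of 13 TCA cycle genes 6 rose and 6 fell (median -0.04), among them Ogdh (0.68 ± 0.09) and Fh1, fumarase (-0.27 ± 0.04). Of 19 glycolytic genes 13 rose and 2 fell (median 0.38), led by the hexokinase gene Hk3 (1.17 ± 0.11). Of 14 regulators of mitochondrial biogenesis 3 rose and 8 fell (median -0.17), with Gabpb1, the GABP beta subunit, at 0.30 ± 0.03 and Tfam, a mitochondrial transcription factor, at -0.32 ± 0.04. Of 8 carriers and cytochrome c genes 3 rose and 3 fell, and of Cyc1 and Ndufab1 the latter fell by 0.20 ± 0.05. The differences between these lists and the members were not tested.
With the score at the second sampling, 2 of the 13 mitochondrially encoded genes rose and 2 fell (median 0.01), and 5 of 45 assembly factors rose and 12 fell. Over the first-sampling days 9 mitochondrially encoded genes rose and 1 fell (median 0.16 per 10 days), and 6 assembly factors rose and 19 fell.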

How the data were processed

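Per the labels' protocols, tail vein blood was drawn into EDTA capillaries, RNA came from a NucleoSpin blood kit, and libraries were stranded total RNA after removal of ribosomal and globin RNA. The authors deposited expected counts per gene and TPM, made with DRAGEN on GRCm39 per the submitters' processing notes; its version and the annotation are not given in the sources used. The deposited expected counts (2.86% not whole) were rounded. The deposited TPM served only to compare levels between genes.

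Genes were kept by filterByExpr over the 20 groups (minimum count 10, total 15; 18192 genes), scaled by TMM and tested two-sided with edgeR 4.0.16 (quasi-likelihood, R 4.3.3), with Benjamini-Hochberg adjustment over all genes and calls at an adjusted p under 0.05. SE is the absolute log2 value over the square root of F. CPM use TMM-scaled totals. Cell composition covariates were the mean log2(CPM + 0.5) of the neutrophil, B cell, T cell and erythroid marker lists. Alternatives were DESeq2 1.42.0, RLE scaling, no filter, covariates, subsets of libraries and a replicate block. No libraries appeared duplicated (lowest chi-square per gene within a group 14.7).

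Named members are, per comparison and complex, up to 2 called rises and 2 falls of at least 1 CPM, the core genes Ndufs1, Ndufv1, Sdha, Sdhb, Uqcrc1, Uqcrfs1, Cox4i1, Cox5a, Cox7a2l and Atp5b, the isoform pairs, and the largest change of each other list; Atp5if1 was not analysed here. Further members, such as those filling out the c ring, the head with its shaft and core complex I, were named after their values were seen. Members and lists were chosen with earlier results of these data known. The fits on the erythroid mean, on total counts and without low TMM factors were added after seeing the data. Some items are not reported here. Scripts were tested on simulated data.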

Additional observations from a re-analysis of the deposited data

Results flagged for a closer look

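The mean log2(CPM + 0.5) of each complex was looked at for a library far from the others of its group, and 8 of 100 such values had one. By chance the rule picks out about 1 in 20 groups, but these values are not independent, and 4 of the 8 come from 1 library. Each was the highest of its group of 10. Replicate 7 of cohort 4 on day 40, one of the 9 libraries of low TMM factor, stood at 4.1399 for complex I (group median 3.12), at 4.8794 for complex II (4.00), at 5.9715 for complex III (4.36) and at 6.2365 for complex V (5.13). In complex III, replicate 2 of cohort 2 on day 5 stood at 4.4568 (4.01) and replicate 1 of cohort 8 on day 40 at 4.9269 (3.78). In complex V, replicate 4 of cohort 1 on day 2 stood at 5.1878 (4.94) and replicate 2 of cohort 5 on day 16 at 5.2617 (4.77).

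The change from the first to the second sampling differed between cohorts 6 to 9 and cohorts 1 to 4 for 8 members in edgeR's interaction test. These sets also differ in the interval between samplings and in the scores at the first sampling. The late set had the higher change for Ndufb5 (0.2391, adjusted p = 0.0174), Ndufa9 (0.2754, adjusted p = 0.0203), Ndufs8 (0.342, adjusted p = 0.035) and Ndufs7 (0.5199, adjusted p = 0.0215). It had the lower change for Cox5a (-0.3981, adjusted p = 0.0131). Ndufa4l2 (6.3502, adjusted p = 1.04e-06) and Cox4i2 (4.4847, adjusted p = 1.6e-05) also differed, at a median of 0 CPM and with counts in 35 and 41 of 190 libraries.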

How the results depend on the processing

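Scaling by total counts, the fits without the 9 libraries of low TMM factor and those on the erythroid mean were chosen after seeing the data. Of the values of single members under alternatives, most kept direction and side of the threshold (1590), 35 came to pass it and 85 turned sign, and the rest no longer passed it. The cause was not tested in any case. Where no share of all genes stands beside a count of members, here or above, the count does not set members apart from other genes. Counts of members called that moved by over 1.5 times were as follows. On day 16, cohort 5 against SPF, the marker list covariates gave 1. From day 16 to day 44 in cohort 5, RLE scaling gave 3, DESeq2 4, no filter 0, globin and rRNA shares 3, marker lists 0 and total counts 0. On day 44 DESeq2 gave 27, globin and rRNA shares 27, cohorts 1 and 3 alone 16 and total counts 31, and leaving out each SPF replicate gave 1 to 3. The trend had 22 with globin and rRNA shares, 24 within cohorts 1 to 4, 3 within cohorts 6 to 9 and 75 with total counts. The second against the first sampling had 1 with marker lists. The change by cohort set had 21 with globin and rRNA shares, 4 with marker lists, 35 with total counts and 16 without the 9 libraries. The slope on score had 20 with globin and rRNA shares, 0 with marker lists and 0 within cohorts 6 to 9 at the second sampling, and 11, 0 (marker lists) and 0 (total counts) at the first. The slope on the erythroid mean at the first sampling had 24 within cohorts 1 to 4.

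With the marker list means as covariates, the sign turned for these estimates. For conventional against SPF on day 44 these were Atp5b -0.43, Atp5l -0.0024. For trend per 10 days in the first sampling these were Ndufs1 -0.034, Atp5b -0.081. For the second against the first sampling these were Ndufa11 -0.039, Ndufb11 -0.065, Sdhd -0.076, Uqcr11 -0.088, Uqcrq -0.048, Cox6a1 -0.14, Atp5b -0.018, Atp5j2 -0.075, Uqcrc1 -0.041, Uqcrfs1 -0.035, Cox6b1 -0.065, Ndufa4l2 0.34. For slope on score in the second sampling these were Ndufb11 -0.087, Ndufa11 -0.045, Ndufb5 0.0061, Sdhd -0.028, Sdha -0.052, Uqcrq -0.028, Uqcr11 -0.023, Cox6a1 -0.035, Cox7a2 -0.05, Atp5b -0.0095, Atp5j2 -0.060, Ndufs1 -0.030, Uqcrc1 -0.0079, Uqcrfs1 -0.10, Cox7a2l -0.045, Cox6b1 -0.070. With scaling by total counts alone, other signs turned. For conventional against SPF on day 44 these were Cox5a -0.50, Uqcrc1 -0.77, Uqcrfs1 -0.55, Sdha -0.53. For trend per 10 days in the first sampling these were Ndufb6 -0.070, Ndufs1 -0.086, Uqcrb -0.093, Cox5a -0.075, Atp5j -0.044, Atp5b -0.14, Sdha -0.17. For the second against the first sampling these were Sdha -0.15, Sdhb -0.42, Cox5a -0.22, Uqcrc1 -0.30, Uqcrfs1 -0.27, Cox7a2l -0.39. For change in cohorts 6 to 9 against cohorts 1 to 4 these were Cox5a 0.0096, Sdha 0.27. For slope on score in the second sampling these were Sdha -0.062, Sdhb -0.16, Cox5a -0.12, Uqcrc1 -0.016, Uqcrfs1 -0.058, Cox7a2l -0.11, Ndufv1 -0.13. For slope on erythroid list mean in the first sampling these were Cox5a -0.52. For slope on erythroid list mean in the second sampling these were Sdha -0.068, Sdhb -0.34, Cox5a -0.60, Cox7a2l -0.30, Ndufv1 -0.28. Within cohorts 1 to 4 alone these turned. For trend per 10 days in the first sampling these were Ndufs1 -0.036, Atp5j -0.043. For slope on erythroid list mean in the first sampling these were Sdha -0.0080. At score 0 only these turned. For trend per 10 days in the first sampling these were Ndufs1 -0.088, Sdha -0.064. Within cohorts 6 to 9 alone the following turned. For trend per 10 days in the first sampling these were Ndufa12 0.11, Uqcrfs1 0.12, Cox7a2l 0.0092, Atp5o 0.13, Cox4i1 0.44. For the second against the first sampling these were Cox5a -0.028, Ndufa4l2 1.44, Cox4i2 0.37. With globin and mitochondrial rRNA shares as covariates, a few turned. For trend per 10 days in the first sampling these were Sdhb 0.011, Uqcrb -0.031, Uqcrfs1 0.0078, Cox5a -0.077, Atp5j -0.071, Cox4i1 0.11. Without SPF replicate 3 these turned. For conventional against SPF on day 44 these were Ndufa4l2 1.10, Cox4i2 0.79, where leaving out the other SPF replicates gave as far as -4.44 and -3.69.

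The data did not show that replicate numbers shared by both samplings pair the libraries, and weak correlations cannot settle whether they mark the same mice. Correlations of same-numbered libraries ran from -0.296 to 0.573, 35 of 95 pairs were over 0.1, and 13 of 95 libraries correlated best with their own number. With the number as a replicate block, the second against the first sampling had 52 members higher and 12 lower. The score slope at the second sampling had 45 and 2, that at the first sampling 0 calls, and the change in cohort 5 had 4. The shares of all genes called with this block are not given, so these counts do not set members apart from other genes.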
